A study of Mus musculus with 6 samples.

Results

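The malate-aspartate and glycerol-phosphate shuttles carry the electrons of cytosolic NADH into mitochondria, and their 10 genes were chosen by name from the 22535 gene rows of the expression table. The malate-aspartate shuttle has 7 of them, the enzymes Mdh1, Mdh2, Got1 and Got2 and the carriers Slc25a11, Slc25a12 and Slc25a13. The glycerol-phosphate shuttle has 3, Gpd1, Gpd1l and Gpd2. All 10 had a row, and all 10 had a mean of at least 1 CPM (the deposited unit, a gene's reads scaled to the total of its library), the minimum set for testing.

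RNA was sequenced from B16-BL6, a mouse melanoma cell line, in 3 libraries with the genotype sgControl (a control guide RNA) and 3 with the genotype sgNDUFS4 (a guide RNA against Ndufs4, which encodes a subunit of respiratory complex I). The series set out to find expression changes that accompany the immunogenicity of the sgNDUFS4 cells. All cells grew in DMEM with serum, sodium pyruvate and antibiotics, and the labels name no further treatment. They do not say whether a genotype is a clone or a pool, nor that replicates are separate cultures, so a p-value here measures only how the libraries of a genotype vary, which may be technical. The genotype and any other difference between the 2 lines cannot be told apart.

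The inner mitochondrial membrane does not let NADH through, so electrons cross it on other molecules. In the malate-aspartate shuttle, cytosolic malate dehydrogenase loads them onto malate, which enters the matrix and is oxidised there, and aspartate made by the mitochondrial transaminase leaves to close the cycle. The NADH that it regenerates in the matrix is a substrate of complex I. The glycerol-phosphate shuttle instead reduces dihydroxyacetone phosphate to glycerol 3-phosphate in the cytosol, and a dehydrogenase on the outer face of the inner membrane passes the electrons to ubiquinone without complex I.

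Depth ran from 20090607 to 25947374 reads in genes per library. Ndufs4 itself was at 54.3, 55.05 and 52.4 CPM in sgControl and at 14.99, 15.98 and 16.84 CPM in sgNDUFS4, which goes with the labels (log2 fold change -1.73, limma adjusted p = 5.9e-16). The 7 melanocyte lineage markers were all at or above 1 CPM and summed to between 14508 and 15927 CPM in every library. The defining markers Cd3e, Cd3d, Cd8a and Cd4 of T cells and Pecam1, Cdh5, Kdr and Tek of endothelium were at 0 in every library. The fibroblast list summed to between 41.8 and 44.1 CPM in sgControl and between 41.4 and 46.1 CPM in sgNDUFS4, with Dcn and Lum at 0, and the keratinocyte list to at most 0.271 CPM, with Krt1 and Krt10 at 0. The 4 macrophage markers in the table summed to between 7.90 and 13.7 CPM in sgControl and between 5.09 and 13.1 CPM in sgNDUFS4. Cd68 among them fell from 4.84 ± 1.43 to 2.64 ± 1.34 CPM (SD, n = 3 each, limma adjusted p = 0.0082), while Lyz2 was at 3.49 ± 1.33 and 4.34 ± 1.60 CPM (adjusted p = 0.36), and their part in the results below was not tested. These are bulk libraries, in which a change in every cell and a change in a share of the cells cannot be told apart.

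Of the 10 shuttle genes, 2 passed the test, 1 in each direction. Slc25a11, the malate carrier, rose by 19.4%, Gpd1l fell by 14.3%, and the other 8 did not pass the test. The 2 members called stood against 52.0% called among the 11063 genes tested (limma on log2(CPM + 0.5), adjusted p below 0.05 over all genes tested). Centred on the median of their 50 nearest tested genes, 5 of the 10 members were called, beside 45.3% of all genes. After scaling by the trimmed mean of M-values (TMM) 3 of the 10 were called, beside 50.7% of all genes. After quantile normalization 2 were called, beside 49.4%. The low share of calls was thus seen with the values as deposited and with these 2 scalings, and not after centring. The neighbours' median was subtracted as a fixed value, so p-values after centring hold no error from the spread among neighbours. By direction, 1 member was higher, where 31.8% of all genes tested were, and 1 was lower, where 20.3% were. Of all calls, 61.1% were higher with the values as deposited and 48.95% were higher after TMM scaling. The median log2 fold change was 0.042 over the members and 0.061 over all genes tested, and the medians of the absolute log2 fold change were 0.068 and 0.206. The absolute value was under the median of all genes tested in 8 of the 10 members.

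Levels between genes can be compared only per length, and on CPM per kb of exon the order was the same in both genotypes. Got2 stood first at 276.5 ± 5.85 CPM per kb (SD, n = 3) in sgControl, followed by Mdh2 at 144.3 ± 4.43, Mdh1 at 117.4 ± 7.67 and Got1 at 104.2 ± 1.24. On this measure the mitochondrial form of each malate-aspartate enzyme was therefore above its cytosolic form. The length takes in every annotated exon of a gene. Near ranks could therefore depend on which transcripts were expressed, which was not tested. The carriers were lower, with Slc25a13 at 46.5 ± 0.452, Slc25a11 at 24.9 ± 0.634 and Slc25a12 at 14.7 ± 0.510 CPM per kb. The glycerol-phosphate genes came last, with Gpd1 at 9.71 ± 0.451, Gpd2 at 4.89 ± 0.181 and Gpd1l at 4.68 ± 0.114 CPM per kb. In neither genotype did the ranges of genes next to each other in this order overlap. Summed per kb, the 7 malate-aspartate genes came to 728.4 ± 17.4 in sgControl and 748.8 ± 6.37 in sgNDUFS4, and the 3 glycerol-phosphate genes to 19.3 ± 0.703 and 20.1 ± 0.416 (SD, n = 3 each).

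**Figure D1:**
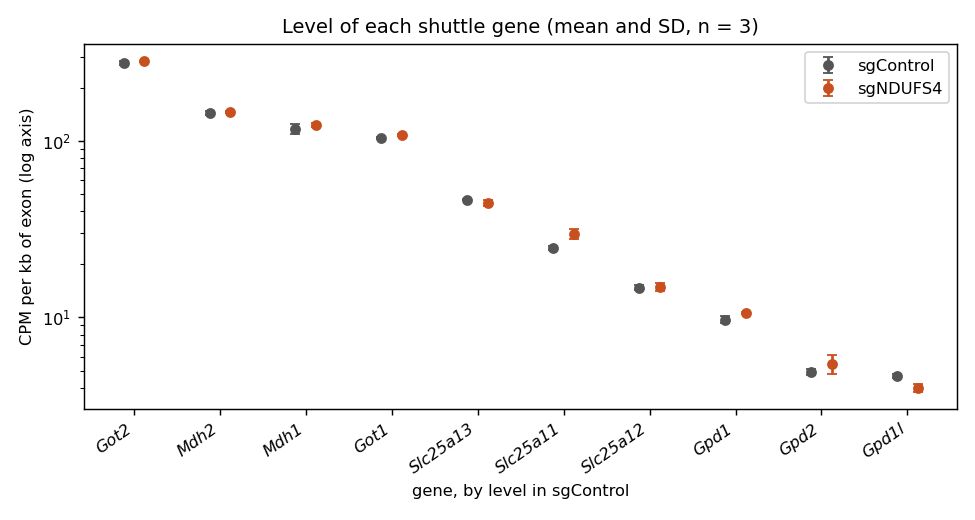
Level of each shuttle gene in CPM per kb of exon on a log axis, for sgControl (grey) and sgNDUFS4 (orange), as the mean with the SD of 3 libraries. The order runs from Got2 at 276.5 to Gpd1l at 4.68 in sgControl and is the same in sgNDUFS4, where these genes are at 282.9 and 3.995.

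Malate dehydrogenase interconverts malate and oxaloacetate with NAD, and neither of its forms passed the test with the values as deposited. Mdh1, the cytosolic form (ENSMUSG00000020321.15, on the minus strand of chromosome 11 in GRCm38, from 21556787 to 21572367), was at 291.5, 288.4 and 323.9 CPM in sgControl and at 313.4, 308.3 and 326.0 CPM in sgNDUFS4. The groups overlapped, because sgControl replicate 3 lay above 2 of the 3 sgNDUFS4 libraries. The log2 fold change of Mdh1 was 0.07 (SE 0.039, limma adjusted p = 0.14), and without sgControl replicate 3 it was 0.12 and passed (adjusted p = 0.0063). It was 0.040 without sgControl replicate 2 (adjusted p = 0.47), 0.010 after TMM scaling (0.85) and 0.0071 centred on neighbours (0.90). Mdh2, the matrix form (ENSMUSG00000019179.10, chromosome 5, 135778480 to 135790398, plus strand), was at 515.5, 497.7 and 529.1 CPM in sgControl and at 516.7, 526.7 and 515.7 CPM in sgNDUFS4. All 3 sgNDUFS4 values lay inside the sgControl range. Its difference was 1.11%, with a 95% interval from -3.19% to 5.61% (limma adjusted p = 0.69).

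Aspartate transaminases move an amino group between glutamate and oxaloacetate, and neither form passed with the values as deposited. Of all members, Got2 had the smallest standard error of its log2 fold change (0.025). Got1, in the cytosol (ENSMUSG00000025190.13, chromosome 19, 43499752 to 43524605, minus strand), was at 266.0, 260.9 and 266.7 CPM in sgControl and at 272.9, 272.5 and 276.9 CPM in sgNDUFS4. Every sgNDUFS4 library was above every sgControl library, though by little, and Got1 did not pass, with 0.051 as its log2 fold change (SE 0.033) and a limma adjusted p of 0.21. Got2, in the matrix (ENSMUSG00000031672.8, chromosome 8, 95864134 to 95888547, minus strand), was at 1354, 1301 and 1346 CPM in sgControl and at 1367, 1349 and 1377 CPM in sgNDUFS4. The groups overlapped, with sgNDUFS4 replicate 2 below sgControl replicate 1. The difference of Got2 was 2.33%, with a 95% interval from -1.32% to 6.11% (limma adjusted p = 0.29). Its 50 neighbours on chromosome 8 had a median log2 fold change of 0.20, with 32 called higher. Centred on that median as a fixed value, Got2 was called lower at -0.17 (limma adjusted p = 5.3e-06). With between 27197 and 35734 reads per library, counting error was 0.584% of its level in sgControl, against a replicate SD of 2.12%.

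Slc25a11 was the member that rose. It encodes the oxoglutarate carrier, which brings malate into the matrix in exchange for 2-oxoglutarate (ENSMUSG00000014606.14, chromosome 11, 70644196 to 70647479, minus strand). Libraries of sgControl had 52.9, 51.3 and 54.0 CPM, and those of sgNDUFS4 had 58.4, 65.9 and 64.9 CPM. All sgNDUFS4 libraries were above all sgControl libraries, the first of them least. The means were 52.7 ± 1.35 and 63.1 ± 4.07 CPM (SD, n = 3 each), and the log2 fold change was 0.26 (SE 0.059) at an adjusted p of 0.00081 by limma, which is 19.4% with a 95% interval from 9.66% to 29.9%. In every alternative run this call was kept, and the log2 fold change lay between 0.16, when the value was centred on neighbouring genes, and 0.31, without sgNDUFS4 replicate 1.

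The start of Slc25a11 faces that of Rnf167, a ubiquitin ligase gene on the opposite strand, and 189 exonic bases (8.92% of the exons of Slc25a11) are shared between them. The library preparation did not keep the strand, so reads in these bases cannot be assigned to either gene. The same holds for exonic bases that other members share with genes on the opposite strand. These are 384 bases of Gpd1 (13%), 434 of Got2 (9%), 487 of Gpd2 (7.44%) and 52 of Mdh1 (2.03%). Rnf167 was at 15.7 ± 2.25 CPM in sgControl and 17.4 ± 3.06 CPM in sgNDUFS4 (SD, n = 3 each, limma adjusted p = 0.36). Slc25a11 had the largest change of the members with the values as deposited, though Gpd1l had it after TMM scaling and quantile normalization, with edgeR and DESeq2 and centred on neighbours. The 3 genes whose values over the 6 libraries were most like those of Slc25a11 were Rbm26, Shroom2 and Arhgap21, with root mean square differences of 0.014, 0.017 and 0.020 in centred log2(CPM + 0.5). Of 10604 genes compared, 107 were within 0.05.

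The aspartate-glutamate carriers send aspartate out of the matrix and take glutamate in, and each has calcium-binding EF hands that face the intermembrane space. Slc25a12, or aralar (ENSMUSG00000027010.16, chromosome 2, 71271063 to 71367749, minus strand), was at 106.5, 112.5 and 105.7 CPM in sgControl and at 105.7, 105.6 and 115.6 CPM in sgNDUFS4. The groups lay on top of each other, with a difference of 0.608% and a 95% interval from -6.02% to 7.71% (limma adjusted p = 0.90). Slc25a13, or citrin (ENSMUSG00000015112.15, chromosome 6, 6041218 to 6217173, minus strand), was at 174.6, 177.1 and 177.9 CPM in sgControl and at 165.5, 176.3 and 163.9 CPM in sgNDUFS4. In sgNDUFS4 2 libraries were below the sgControl range and 1 was inside it. With the values as deposited the log2 fold change of Slc25a13 was -0.067 (SE 0.040, limma adjusted p = 0.16).

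The call for Slc25a13 depended on the scaling. It was lower after TMM scaling (log2 fold change -0.13, limma adjusted p = 0.011), in edgeR's quasi-likelihood test on the recovered reads (-0.13, adjusted p = 0.010) and in DESeq2 (-0.13, adjusted p = 0.0094), and it did not pass after quantile normalization (adjusted p = 0.16). Its 50 nearest tested genes on chromosome 6 had a median log2 fold change of 0.27, with 32 called higher and 2 called lower. Centred on them, Slc25a13 was at -0.33 (limma adjusted p = 1.7e-07).

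The glycerol-phosphate shuttle has a single mitochondrial enzyme and a cytosolic enzyme with a close relative. Gpd1, the cytosolic glycerol 3-phosphate dehydrogenase (ENSMUSG00000023019.12, chromosome 15, 99717515 to 99725005, plus strand), was at 30.2, 28.5 and 27.5 CPM in sgControl and at 31.9, 31.45 and 31.2 CPM in sgNDUFS4. The sgNDUFS4 libraries were tightly grouped and all above sgControl. The test did not pass, at a difference of 9.52% and a 95% interval from -1.52% to 21.8% (limma adjusted p = 0.14). Among its 50 neighbours on chromosome 15 the median log2 fold change was -0.13, and centred on them Gpd1 was at 0.26 (adjusted p = 0.0044).

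Gpd1l was the member that fell. It encodes a relative of Gpd1 that can also reduce dihydroxyacetone phosphate (ENSMUSG00000050627.13, chromosome 9, 114899341 to 114933987, minus strand). Libraries of sgControl had 24.1, 24.1 and 23.1 CPM, and those of sgNDUFS4 had 21.15, 20.7 and 19.0 CPM, so that the groups did not overlap. The means were 23.7 ± 0.578 and 20.3 ± 1.13 CPM (SD, n = 3 each), and the log2 fold change was -0.22 (SE 0.087) at an adjusted p of 0.033 by limma, which is -14.3% with a 95% interval from -24.3% to -3.06%. It had the fewest reads of the members, between 484 and 569 per library, which gives a counting error of 4.38% of its level in sgControl. The call was lost when any of 4 libraries was left out, at adjusted p = 0.078 without sgControl replicate 1, 0.081 without sgControl replicate 2, 0.054 without sgNDUFS4 replicate 2 and 0.13 without sgNDUFS4 replicate 3. It held after TMM scaling and quantile normalization and with edgeR and DESeq2, and centred on its neighbours, whose median was 0.17, the log2 fold change was -0.39 (adjusted p = 0.00073).

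Gpd2, the inner membrane enzyme that hands electrons to ubiquinone (ENSMUSG00000026827.12, chromosome 2, 57237635 to 57370719, plus strand), varied most among the sgNDUFS4 libraries. Libraries of sgControl had 33.4, 31.2 and 31.5 CPM, and those of sgNDUFS4 had 30.7, 37.4 and 39.0 CPM. The first sgNDUFS4 library was below every sgControl library and the others were above all of them. This is an SD of 12.4% of the mean in sgNDUFS4, where counting error is 3.33%. The log2 fold change of Gpd2 was 0.15 (SE 0.082, limma adjusted p = 0.13), and without sgNDUFS4 replicate 1 it was 0.25 and passed (adjusted p = 0.014). It was 0.081 without sgNDUFS4 replicate 3 (adjusted p = 0.48), 0.089 after TMM scaling (0.37) and 0.019 centred on neighbours (0.87).

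**Figure D2:**
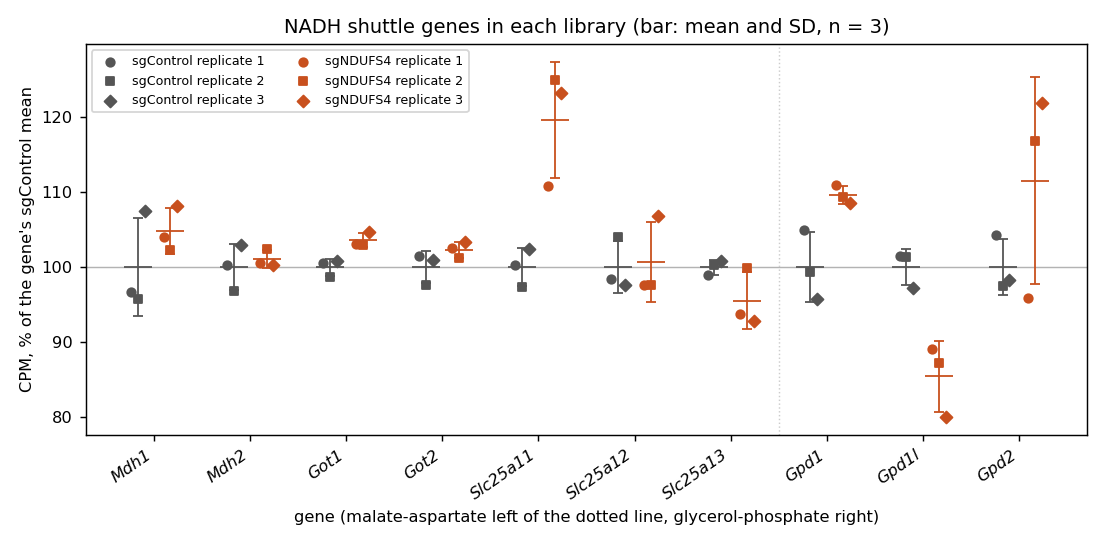
CPM of each shuttle gene in each library as a percentage of that gene's sgControl mean, with symbols for the replicates, a bar at the mean and the SD of 3 libraries, for sgControl (grey) and sgNDUFS4 (orange). The sgNDUFS4 libraries lie at 111% to 125% for Slc25a11 and at 80.0% to 89.1% for Gpd1l, while those of Gpd2 span 95.9% to 121.9%.

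Across the set, groups did not overlap in 4 members (Slc25a11, Gpd1l, Got1 and Gpd1), where 57.2% of all genes tested had groups that did not overlap. For the 8 members that were not called, the 95% intervals reached at most 24.5% (Gpd2) above and -9.77% (Slc25a13) below no difference with the values as deposited. TMM scaling moved the median log2 fold change of all genes tested from 0.061 to 0.0028, and gave Got1, Got2, Mdh2 and Slc25a12 a negative sign, none of them called.

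**Figure D3:**
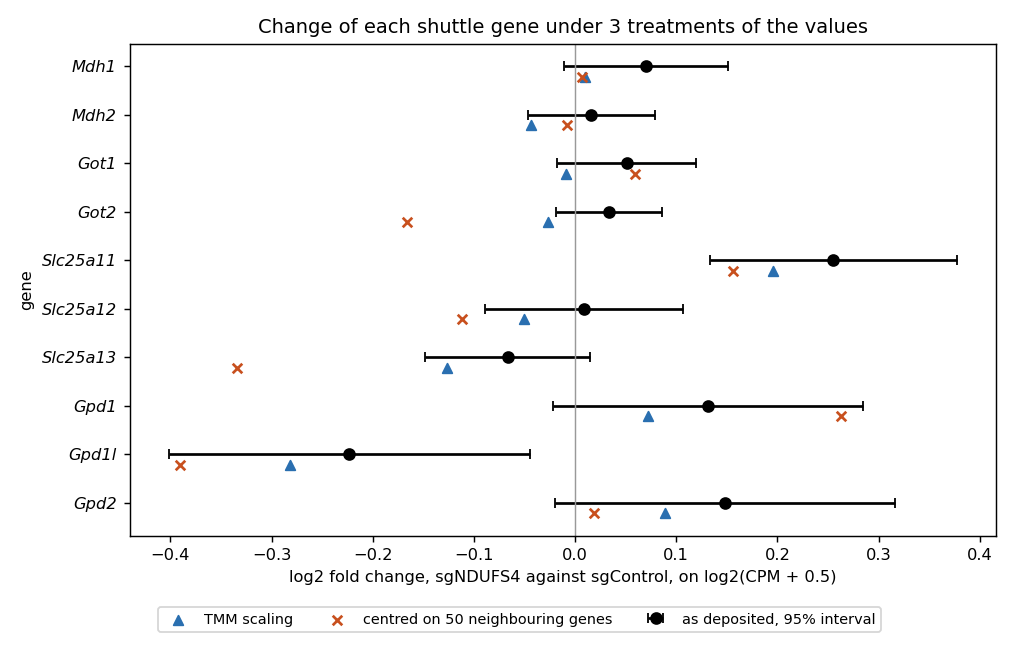
Log2 fold change of each shuttle gene in sgNDUFS4 against sgControl with its 95% interval (black), after TMM scaling (blue triangles) and after subtracting the median of the 50 nearest tested genes (orange crosses). Slc25a11 is to the right of 0 and Gpd1l to the left in all 3, while Slc25a13 moves from -0.067 to -0.33 with centring.

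A ratio of 2 genes within a library is not moved by a factor that scales the whole library, and 4 pairs of genes were compared. Gpd2 was paired with Gpd1l, the member that fell, and not with Gpd1. The log2 fold changes of Gpd1 and Gpd2 were 0.13 and 0.15, and the ratio of these genes was not tested. Per kb of exon, Mdh1 was at 0.785, 0.804 and 0.850 of Mdh2 in sgControl and at 0.842, 0.812 and 0.877 in sgNDUFS4, and these ranges overlapped. Got1 kept between 0.373 and 0.381 of Got2 in sgControl and between 0.379 and 0.384 in sgNDUFS4. Slc25a12 was at 0.307 to 0.329 of Slc25a13 in sgControl and at 0.310 to 0.365 in sgNDUFS4. Of the 4 pairs, the ratio of Gpd1l to Gpd2 showed the widest difference. This pair holds the only member called lower with the values as deposited, so its rank is not a separate result. The ratio of Gpd1l to Gpd2 went from 0.930, 0.993 and 0.946 in sgControl to 0.888, 0.713 and 0.628 in sgNDUFS4, with every sgNDUFS4 value below. On the log2 scale this ratio differed by -0.37 (exact two-sided permutation p = 0.10, the smallest that 3 against 3 libraries can give, adjusted p = 0.40 over the 4 pairs). The other pairs differed by 0.054 for Mdh1 to Mdh2, 0.018 for Got1 to Got2 and 0.076 for Slc25a12 to Slc25a13, with exact permutation p of 0.30, 0.20 and 0.40. Centred on neighbours, Got1 to Got2 differed by 0.23, Slc25a12 to Slc25a13 by 0.22 and Mdh1 to Mdh2 by 0.016. Centring adds a constant to the sgNDUFS4 libraries alone, which can separate the groups by itself. No permutation p is therefore given for these centred differences.

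Promoter windows (250 bases before to 50 after the start, RefSeq, GRCm38.p6) were matched for 9 of the 10 genes, with 2 windows for Gpd2, and 8 motifs were searched on either strand. TCGCGAGA occurred in Slc25a11 and Mdh2, and CACGTG, the E-box core read by factors such as MYC and MITF, in Gpd1l and Slc25a13. TGACNNNGC (antioxidant response element) occurred in Gpd1l and Mdh1, TGACGTCA in Mdh2 and AAGGTCA in Got1. GCGCATGCG, AAGATGGCG and CCGGAAGT occurred in none. Of 32851 mouse windows, 0.995% held TCGCGAGA, 7.15% CACGTG, 12.4% TGACNNNGC, 1.79% TGACGTCA, 4.72% AAGGTCA, 1.75% GCGCATGCG, 1.40% AAGATGGCG and 3.89% CCGGAAGT. Overlapping copies of a motif were counted as 1 place.

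Slc25a11 and Mdh2 each held 3 places with TCGCGAGA in their window, where 0.119% of all windows held 2 or more. The 4 stretches below are the parts of promoter windows that lie outside every annotated exon. They are shown for the member that rose and the other member with TCGCGAGA, and for the member that fell and the other member with CACGTG. Gpd1l also shared TGACNNNGC with Mdh1, whose window is not shown. Capitals mark TCGCGAGA on either strand in the first 2 and CACGTG in the last 2.
Slc25a11, chr11:70647059-70647234, minus strand: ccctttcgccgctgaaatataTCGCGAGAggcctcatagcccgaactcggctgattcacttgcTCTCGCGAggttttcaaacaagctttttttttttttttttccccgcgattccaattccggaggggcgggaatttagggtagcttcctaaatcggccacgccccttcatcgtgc
Mdh2, chr5:135778399-135778479, plus strand: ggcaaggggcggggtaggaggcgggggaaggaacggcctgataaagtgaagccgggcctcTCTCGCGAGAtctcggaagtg
Gpd1l, chr9:114933988-114934237, minus strand: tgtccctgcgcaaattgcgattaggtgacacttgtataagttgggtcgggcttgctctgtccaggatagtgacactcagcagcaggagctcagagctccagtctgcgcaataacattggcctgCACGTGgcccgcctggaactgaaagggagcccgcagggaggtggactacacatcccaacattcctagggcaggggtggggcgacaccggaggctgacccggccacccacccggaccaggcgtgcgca
Slc25a13, chr6:6217174-6217423, minus strand: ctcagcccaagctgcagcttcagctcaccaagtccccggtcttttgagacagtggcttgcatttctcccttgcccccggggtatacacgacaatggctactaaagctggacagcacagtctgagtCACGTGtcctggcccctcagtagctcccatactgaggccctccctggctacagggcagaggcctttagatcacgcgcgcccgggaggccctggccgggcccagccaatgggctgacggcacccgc

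Of the genes with TCGCGAGA, Slc25a11 was called higher and Mdh2 was not called. Of those with CACGTG, Gpd1l was called lower and Slc25a13 was not called with the values as deposited, while both were called lower after TMM scaling, with edgeR, with DESeq2 and centred on neighbours. Of those with TGACNNNGC, Gpd1l was called lower and Mdh1 was not called with the values as deposited, at a log2 fold change of 0.07. A match of these letters is a description of the window and not a binding site.

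Around the shuttles, genes of linked reactions moved in both directions. In 6 lists of such genes 50 were tested, and 20 were called higher and 10 lower, which is 60.0% called beside 52.0% of all genes tested. Their median log2 fold change was 0.044. After TMM scaling 17 were higher and 15 lower, and centred on neighbours 16 of 49 were higher and 15 lower. The shares of all genes tested that the counts below stand beside were 31.8% higher and 20.3% lower with the values as deposited, 24.8% and 25.9% after TMM scaling, and 21.6% and 23.7% centred on neighbours.

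Other enzymes and carriers pass electrons to ubiquinone, as Gpd2 does. Of 10 such genes tested, 7 were called higher (31.8% of all genes were) and 0 lower (20.3%), and their log2 fold changes had a median of 0.27. After TMM scaling 5 were higher and 2 lower (Sdhb and Sdhd), and centred on neighbours 6 were higher and 2 lower. Etfdh, which takes electrons from fatty acid oxidation, rose from 61.3 ± 3.56 to 97.6 ± 6.60 CPM, and Prodh, proline dehydrogenase, from 90.0 ± 1.91 to 131.6 ± 7.65 CPM (SD, n = 3 each). Sdha, the catalytic subunit of complex II, rose from 393.6 ± 4.82 to 517.1 ± 8.56 CPM, while Sdhb was at 383.6 ± 7.03 and 373.9 ± 4.62 CPM and did not pass (limma adjusted p = 0.34) with the values as deposited. Sdhb was lower after TMM scaling (-0.097 on the log2 scale, adjusted p = 0.014). Neighbouring genes of Sdha, on chromosome 13, had a median of 0.48, and centred on them it was at -0.086 (adjusted p = 0.025). Centred in the same way, against a median of -0.19, Sdhb was higher at 0.16 (adjusted p = 0.00015), so the order of these subunits turned. Those of Etfdh had a median of 0.32, and centred it was at 0.34. For Prodh the neighbours' median was -0.029.

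Lactate dehydrogenase is the other main way in which the cytosol turns NADH back into NAD. In the list for lactate and pyruvate, 5 of 7 genes tested were called higher and 2 lower, beside 31.8% and 20.3% of all genes, after TMM scaling 4 were higher and 2 lower, and centred on neighbours 3 were higher and 1 lower. Ldha rose from 2895 ± 52.6 to 3322 ± 45.9 CPM and Ldhb from 155.2 ± 9.56 to 205.0 ± 14.9 CPM (SD, n = 3 each). Mpc1, a subunit of the mitochondrial pyruvate carrier, rose from 13.8 ± 0.310 to 20.8 ± 2.18 CPM, while the log2 fold change of its partner Mpc2 was -0.37 (limma adjusted p = 0.0055).

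Genes that share malate, citrate, aspartate or glutamate with the shuttle moved both ways. Of 14 tested, 3 were higher and 3 lower, beside 31.8% and 20.3% of all genes, after TMM scaling 3 were higher and 4 lower, and centred on neighbours 3 were higher and 6 lower. Gpt, the cytosolic alanine transaminase, fell from 17.8 ± 2.82 to 6.08 ± 1.26 CPM, and Me1, cytosolic malic enzyme, from 117.7 ± 3.44 to 92.2 ± 1.51 CPM (SD, n = 3 each). Slc25a1, the citrate carrier, rose from 20.8 ± 1.15 to 30.5 ± 2.29 CPM. Acly, ATP citrate lyase, was at 565.9 ± 7.63 and 581.0 ± 11.1 CPM and did not pass (limma adjusted p = 0.28) with the values as deposited. Its sign followed the scaling, since it was called higher after quantile normalization (0.077, adjusted p = 0.021) and lower centred on neighbours (-0.15, adjusted p = 0.00012).

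Of 7 tested genes that make or use glycerol 3-phosphate or dihydroxyacetone phosphate, 1 was higher and 3 lower (31.8% and 20.3% of all genes). The counts were the same after TMM scaling, and centred on neighbours 3 were higher and 3 lower. Pgp, a phosphatase of glycerol 3-phosphate, fell from 37.6 ± 3.99 to 24.0 ± 2.69 CPM (SD, n = 3 each). Aldoc, the only aldolase of the list that was tested, fell from 9.85 ± 1.62 to 6.13 ± 0.151 CPM (SD, n = 3 each). Gk, glycerol kinase, fell from 36.3 ± 0.694 to 24.0 ± 2.87 CPM. Its neighbours on chromosome X had a median log2 fold change of -0.84, and centred on them it was at 0.25 (limma adjusted p = 0.0073). Tpi1, triosephosphate isomerase, was at 1642 ± 3.58 and 1681 ± 27.4 CPM and did not pass (adjusted p = 0.25) with the values as deposited. It was called higher after quantile normalization (0.078, adjusted p = 0.0078) and centred on neighbours (0.069, adjusted p = 0.019), and was at -0.026 after TMM scaling (adjusted p = 0.42).

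For NAD synthesis, transport and transhydrogenation, 2 of 9 genes were higher and 2 lower, beside 31.8% and 20.3% of all genes, after TMM scaling 2 were higher and 4 lower, and centred on neighbours 1 of 8 was higher and 3 were lower. Nnt, the transhydrogenase that links NADH and NADPH in the matrix, rose from 71.7 ± 3.67 to 100.5 ± 6.09 CPM (SD, n = 3 each). It had no value centred on neighbours, so whether its rise went with its region was not tested. Nadsyn1, NAD synthetase, rose from 12.6 ± 1.98 to 17.8 ± 0.679 CPM (SD, n = 3 each). Nadk, NAD kinase, fell from 146.3 ± 3.00 to 125.4 ± 3.18 CPM. Nampt, which makes nicotinamide mononucleotide, was at 91.3 ± 3.22 and 86.2 ± 3.93 CPM and did not pass (limma adjusted p = 0.17) with the values as deposited. It was called lower after TMM scaling (-0.14, adjusted p = 0.022), with edgeR (adjusted p = 0.021) and with DESeq2 (adjusted p = 0.029). The ATP-Mg carriers have EF hands like those of Slc25a12 and Slc25a13, and 2 of 3 tested were higher (31.8% of all genes were), also after TMM scaling, but 1 of 3 with DESeq2 and 0 of 3 centred on neighbours. Slc25a24 rose from 15.8 ± 2.33 to 21.2 ± 1.64 CPM and Slc25a23 from 31.4 ± 0.738 to 37.9 ± 5.41 CPM, while Slc25a25 was at 8.49 ± 1.81 and 8.33 ± 1.72 CPM and did not pass (adjusted p = 0.92). Centred on neighbours, Slc25a24 was at 0.25 (adjusted p = 0.066) and Slc25a23 at 0.14 (adjusted p = 0.17), and with DESeq2 the adjusted p of Slc25a23 was 0.053.

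**Figure D4:**
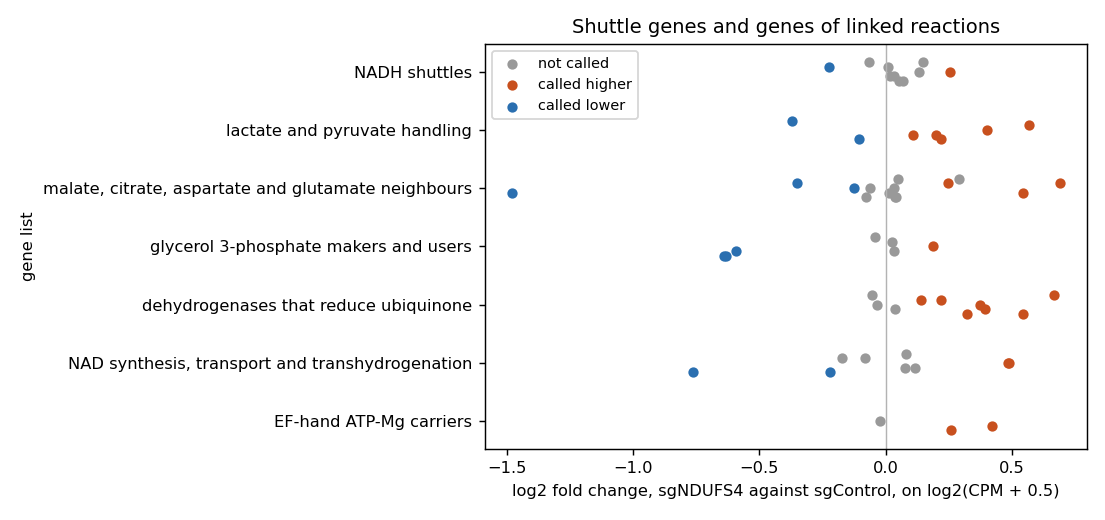
Log2 fold change in sgNDUFS4 against sgControl of the 10 shuttle genes and of the tested genes in 6 lists of linked reactions, 1 point per gene, coloured by call (vertical position within a list has no meaning). The shuttle genes lie between -0.22 and 0.26, and the list of malate, citrate, aspartate and glutamate genes spans -1.48 to 0.69.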

How the data were processed

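RNA was extracted with TRIzol, and polyadenylated RNA was sequenced in paired ends without strand, per the labels' protocols. The aligner HISAT2 and build GRCm38 come from the submitters' processing notes, while the counting tool and annotation were not given in the sources used here. Values were deposited as CPM, scaled by the authors to the reads counted in genes of each library. At least 99.98% of values above 0 were whole multiples of the smallest value within a tolerance of 0.01, so read numbers were recovered. A floor of 3 reads is at most 0.149 CPM and covers counting error only. No 2 replicates matched within counting noise (lowest chi-square per gene 3.53).

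The main test was limma 3.58.1 (R 4.3.3) with a mean-variance trend on log2(CPM + 0.5), two-sided, for the 11063 genes averaging 1 CPM or more. P-values were adjusted by Benjamini-Hochberg over these genes, with a threshold of 0.05. This scale understates changes of low genes, and percent differences are computed from it. Intervals are at 95%. Alternatives were other pseudocounts (0.1 and 1), filters (none and 5 CPM) and scalings, edgeR 4.0.16 and DESeq2 1.42.0 on the recovered reads, a replicate block, each library left out, and centring on the 50 nearest tested genes. GENCODE M21 (GRCm38) gave positions and exon lengths by symbol, for 10894 of the genes tested. Of these, 10881 had enough neighbours to be centred. The neighbours' median was subtracted from the sgNDUFS4 values as a fixed number. P-values and calls after centring leave out the spread among neighbours, and so overstate the certainty of a difference from the region. The limma script was tested on simulated data. The members and lists were chosen with earlier results of these data known. Named genes are all members, Ndufs4, up to 3 called genes per linked list by smallest p and 1 uncalled gene by highest CPM, and the 3 genes most like the member with the largest change in the values as deposited. Mpc2 and Sdhd were added after their values were seen. Rnf167 was named for its overlap with Slc25a11. Of each marker list the rule also takes the 2 highest genes; lists are given here by sums and by the markers at 0, with Cd68, the one of those outside the melanocyte list that was called.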

Additional observations from a re-analysis of the deposited data

How the results depend on the processing

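Slc25a11 was called higher and Ndufs4 lower in each alternative run, and the number of genes called stayed between 4929 and 5941, against 5755. The number of members called was 2 and was between 1 and 3 when any library was dropped, and it was 5 after centring on neighbours, when Gpd1 was higher and Got2 and Slc25a13 lower beside the 2, and 45.3% of all genes were called. Signs changed for members that were not called, except for Got2 after centring, which was called lower. After TMM scaling the log2 fold changes were -0.044 for Mdh2, -0.0088 for Got1, -0.027 for Got2 and -0.051 for Slc25a12. With edgeR they were -0.044, -0.0088, -0.027 and -0.051, and with DESeq2 -0.045, -0.0091, -0.027 and -0.051 in that order. Quantile normalization gave -0.0064 for Slc25a12. Centring on neighbours gave -0.0085 for Mdh2, -0.17 for Got2 and -0.11 for Slc25a12. When any library was dropped, Mdh2 lay between -0.0072 and 0.037, Slc25a12 between -0.034 and 0.037, and the differences in log2 ratio were between -0.51 and -0.26 for Gpd1l to Gpd2, 0.026 and 0.086 for Mdh1 to Mdh2, 0.011 and 0.026 for Got1 to Got2, and 0.013 and 0.13 for Slc25a12 to Slc25a13. The cause of these shifts was not tested. Labels share replicate numbers, but same-numbered libraries deviated together only weakly (correlations of 0.056, 0.012 and 0.097), and sgNDUFS4 replicate 2 correlated best with sgControl replicate 1 (0.035). The numbers were therefore not taken as pairs. A replicate block gave 5941 genes called and the same 2 members. Among the members, counting error was largest for Gpd1l, Gpd1 and Gpd2, with at most 1013 reads per library. Gpd2 varied beyond it in sgNDUFS4, at an SD of 12.4% of the mean against a counting error of 3.33%.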
